A study of Mus musculus with 4 samples.

Results

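Far2, Cidea, Dgat2, Scd1, Mc5r, Cd36, Olah, Plin2, Pparg and Elovl3 are 10 genes of lipid storage, lipid synthesis and fatty acid uptake that the sebaceous gland of the skin uses heavily. They were taken by gene symbol from the 18193 genes with a named probe set, together with all of their 16 probe sets among the 45101 of the array. The genes had been picked because they were higher with InvCREER, and most so on 1 of its 2 arrays, so their differences between the lines are given as a description with no test. Of the 16 probe sets, 15 passed the filter on dim signals, at least 1 for each of the 10 genes.

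RNA came from living YFP-positive basal cells sorted from the interfollicular epidermis of mouse tail skin on high surface alpha6 integrin and absent surface CD34. InvCREER/RosaYFP mice carry a tamoxifen-inducible Cre under the involucrin promoter, which is active in differentiating keratinocytes, and received 10 ug of tamoxifen. K14CREER/RosaYFP mice carry the inducible Cre under the keratin 14 promoter of the basal layer and received 1 ug. Both lines are on the CD-1 background and carry the Rosa YFP reporter, which Cre switches on in the cells where it acts. There were 2 arrays per line, with no label on whether they came from separate mice, on the age of the mice or on pooling, so the spread between arrays may be technical. The titles give 3.5 days after induction and the protocol 4 days, and the tamoxifen dose cannot be told apart from the Cre line. The gate has no antibody against sebaceous cells.

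Sebocytes fill with triglycerides, wax esters and cholesterol esters, which they hold in lipid droplets until the cell bursts and releases them as sebum. Pparg encodes the nuclear receptor that drives both adipocyte and sebocyte differentiation. Keratinocytes of the interfollicular epidermis also make lipid, for the water barrier, and several of these genes are active in them too.

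The array InvCREER 1 stood apart from the other arrays in ways the design does not describe. Xist, the RNA of the inactive X chromosome, was at a log2 value of 12.56 on InvCREER 1 and 8.26 on InvCREER 2, against 7.25 and 5.44 on the K14CREER arrays. The Y-linked gene Kdm5d was at 5.04 on InvCREER 1 and 8.09 on InvCREER 2, against 7.01 and 7.74 with K14CREER. InvCREER 1 thus held high Xist with low Kdm5d, and Uty and Eif2s3y were likewise lowest there. The log2 ratio of the probe sets near the end of the transcript to those near its start, which is larger in degraded RNA, was 1.24 for beta-actin on InvCREER 1, 0.77 on InvCREER 2, and 0.94 and 0.68 with K14CREER. It was also highest on InvCREER 1 for Gapdh and pyruvate carboxylase, but not for the transferrin receptor, where K14CREER 2 was highest at 1.53. Each difference below is therefore given for InvCREER 1 and InvCREER 2 separately, against the mean of the K14CREER arrays. The part of sex or RNA quality in these differences was not tested.

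All 10 genes were higher on both InvCREER arrays than on either K14CREER array, where 21.3% of the 11270 tested genes were so placed, and all 10 were higher on InvCREER 1 than on InvCREER 2, against 43.5% of tested genes. Both counts follow from how the genes were picked, so nothing is read from them or from the InvCREER shares below. Olah, Cd36, Pparg and Mc5r, with K14CREER means under the filter value, also had to differ. The other 6 were placed in the same way. The median difference of the 10 genes was 3.73 in log2 units on InvCREER 1 and 1.92 on InvCREER 2, against medians of -0.05 and 0.01 over all tested genes. All 10 lay at least 4-fold above the K14CREER mean on InvCREER 1 and 5 of 10 did on InvCREER 2. Over all tested genes those shares were 1.27% and 0.914%. At least 2-fold above it were 10 of 10 on InvCREER 1 and 8 of 10 on InvCREER 2, where 4.26% and 3.62% of tested genes were. InvCREER 1 was at least 2-fold above InvCREER 2 for 8 of the 10, against 1.36% of tested genes. Between the K14CREER arrays 7 of the 10 were higher on K14CREER 1 (45.1% of tested genes), with a median difference of 0.39, against -0.04 over all tested genes. In sorted bulk RNA, more cells of a type and more RNA per cell cannot be told apart. The plot of the values on each array shows the 4 arrays side by side.

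**Figure D1:**
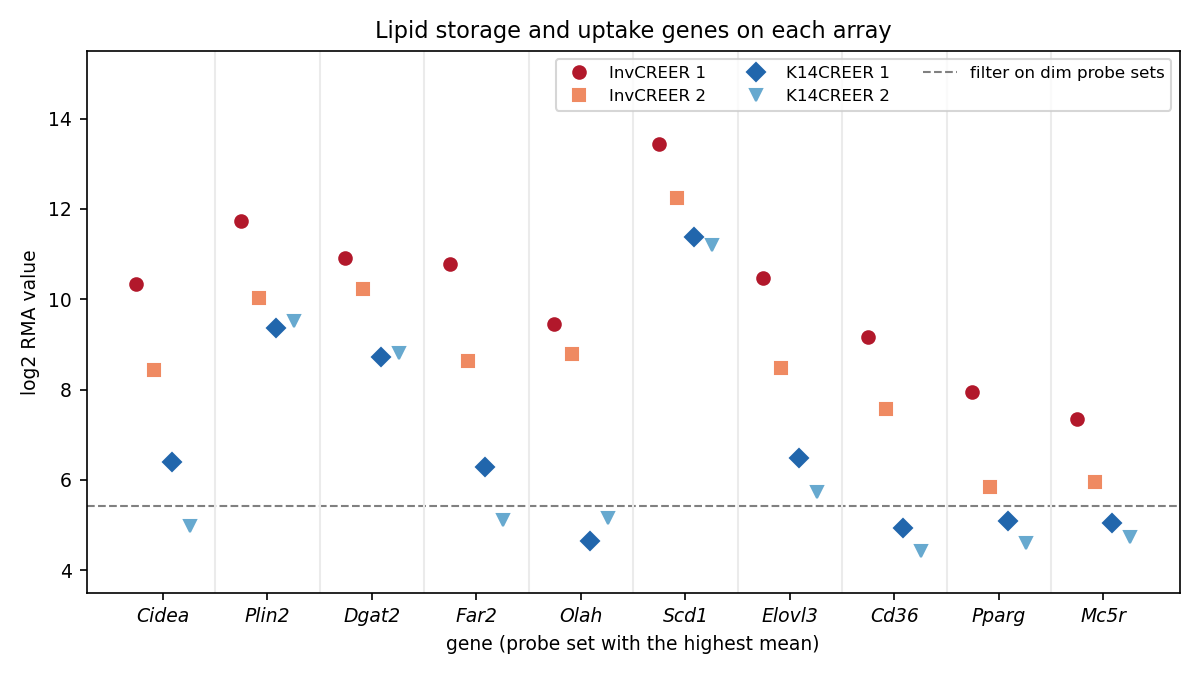
Log2 RMA value (vertical axis) of the 10 genes on each of the 4 arrays, 1 point per array, using the probe set of each gene with the highest mean. The dashed line is the filter value of 5.42. InvCREER 1 is the highest array for every gene and InvCREER 2 the next. The K14CREER arrays lie under the filter value for Olah, Cd36, Pparg and Mc5r, and K14CREER 2 also for Far2 and Cidea.

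The lipid droplet genes differed in how far InvCREER 2 shared the increase. Cidea encodes a droplet protein that lets small droplets pass their lipid into larger ones. Cidea was at log2 values of 10.33 and 8.42 on the InvCREER arrays, against 6.40 and 4.98 on the K14CREER arrays. Both lines were spread, with SDs of 1.35 for InvCREER and 1.01 for K14CREER (n = 2 each), yet the lowest InvCREER array was 2.02 above the highest K14CREER array. Plin2 encodes a coat protein found on the droplets of most cell types. Plin2 was at 11.72 and 10.03 with InvCREER, against 9.37 and 9.51 with K14CREER. The K14CREER arrays were nearly level for Plin2, InvCREER 2 was 1.51-fold above their mean, and InvCREER 1 was 4.88-fold above it. Of the 10 genes Plin2 thus had the smallest difference on InvCREER 2, 0.60 in log2 units.

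Dgat2 and Far2 encode enzymes that make the lipids to be stored. Dgat2 adds the last fatty acid to a triglyceride. Its brighter probe set was at 10.92 and 10.22 with InvCREER, against 8.72 and 8.80 with K14CREER. The other Dgat2 probe set was at 8.29 and 8.23 with InvCREER, against 6.81 and 6.91 with K14CREER. On that probe set the InvCREER arrays were nearly level, 2.70-fold and 2.59-fold above the K14CREER mean, so that InvCREER 1 did not stand out. Far2 reduces fatty acids to the fatty alcohols of wax esters. Its brighter probe set was at 10.77 and 8.63 with InvCREER, against 6.28 and 5.11 with K14CREER. The increase was 33.7-fold on InvCREER 1 and 7.67-fold on InvCREER 2, with 34.8-fold and 9.40-fold on the other Far2 probe set, whose K14CREER mean of 4.57 lay under the filter value, so that background limits these folds. Far2 had the second largest difference of all 11270 tested genes on InvCREER 1 (rank 2), and rank 33 on InvCREER 2.

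Olah, Scd1 and Elovl3 encode enzymes that release, desaturate and lengthen fatty acids. Olah is a thioesterase that frees fatty acids from fatty acid synthase before the chain is complete. The brighter Olah probe set was at 9.46 and 8.78 with InvCREER, against 4.65 and 5.16 with K14CREER. It was higher by 4.55 in log2 units on InvCREER 1 and by 3.87 on InvCREER 2, so that InvCREER 2 reached 85.1% of the log2 difference on InvCREER 1. This was the highest such share among the brightest probe sets of the 10 genes, though the other Dgat2 probe set gave 95.8%, and on InvCREER 2 Olah had the fifth largest difference of all tested genes (rank 5). The other Olah probe set was at 8.42 and 8.17 with InvCREER, against 4.58 and 4.99 with K14CREER, and InvCREER 1 was 0.25 above InvCREER 2 on it.

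Scd1 encodes the desaturase that puts the double bond into oleic and palmitoleic acid, and mice without it have shrunken sebaceous glands. The brighter Scd1 probe set was at 13.44 and 12.25 with InvCREER, against 11.37 and 11.20 with K14CREER. The highest value of any array was 14.22, so this probe set was among the brightest. The dimmer one was at 9.95 and 8.65 with InvCREER, against 7.31 and 7.78 with K14CREER. The probe sets gave 4.45-fold and 5.28-fold on InvCREER 1 and 1.96-fold and 2.14-fold on InvCREER 2. Elovl3 encodes an elongase of very long fatty acids, and mice without it have abnormal sebum. Elovl3 was at 10.47 and 8.48 with InvCREER, against 6.49 and 5.74 with K14CREER. The 20.5-fold difference on InvCREER 1 was 5.16-fold on InvCREER 2, with no overlap between the lines.

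Cd36 encodes a membrane receptor that takes up long-chain fatty acids and oxidised lipoproteins, and which macrophages, adipocytes and capillary endothelium also carry. Its brightest probe set was at 9.17 and 7.56 with InvCREER, against 4.93 and 4.43 with K14CREER. The next was at 9.04 and 7.73 with InvCREER, against 4.96 and 4.20 with K14CREER. The dimmest, which did not pass the filter, was at 7.02 and 5.64 with InvCREER, against 3.63 and 3.55 with K14CREER. All 3 probe sets placed InvCREER 1 first and InvCREER 2 second. The K14CREER means lay under the filter value of 5.42 on each, so background limits the size of the difference.

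The regulators were dim. Pparg was at 7.94 and 5.85 with InvCREER, against 5.09 and 4.60 with K14CREER. Pparg was 8.53-fold above the K14CREER mean on InvCREER 1 and 2.01-fold above it on InvCREER 2, where it lay close to the filter value. Mc5r encodes the melanocortin receptor through which sebum output is stimulated in mice. Mc5r was at 7.36 and 5.95 with InvCREER, against 5.04 and 4.75 with K14CREER. For these genes InvCREER 2 was nearer to the K14CREER arrays than to InvCREER 1, as it also was for Plin2 and Scd1. Pparg, Mc5r, Cd36 and Olah had K14CREER means under the filter value, so that they passed only through the InvCREER arrays and had to differ.

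The ratio between the InvCREER arrays separated the 10 genes. The difference on InvCREER 2 was 26.1% of that on InvCREER 1 for Plin2, 32.5% for Pparg, 42.8% for Mc5r and 44.9% for Scd1. It was 54.3% for Elovl3, 57.9% for Far2, 58.9% for Cidea, 64.2% for Cd36 and 67.9% for Dgat2, below the 85.1% of Olah. On the dimmer probe sets Dgat2 was at 95.8% and Olah at 93.2%, so their order turned with the probe set. These shares are of log2 differences from 1 array each, and neighbours in this order have no error with which to tell them apart. Dgat2 and Olah also had the smallest gaps between the InvCREER arrays, 0.69 and 0.68 in log2 units, and Far2 and Pparg the largest, 2.13 and 2.09. Between the K14CREER arrays Cidea and Far2 had the largest gaps, with K14CREER 1 higher by 1.42 and 1.17, while Olah was lower on K14CREER 1 by 0.51. Cidea had rank 52 of 11270 tested genes by this gap.

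**Figure D2:**
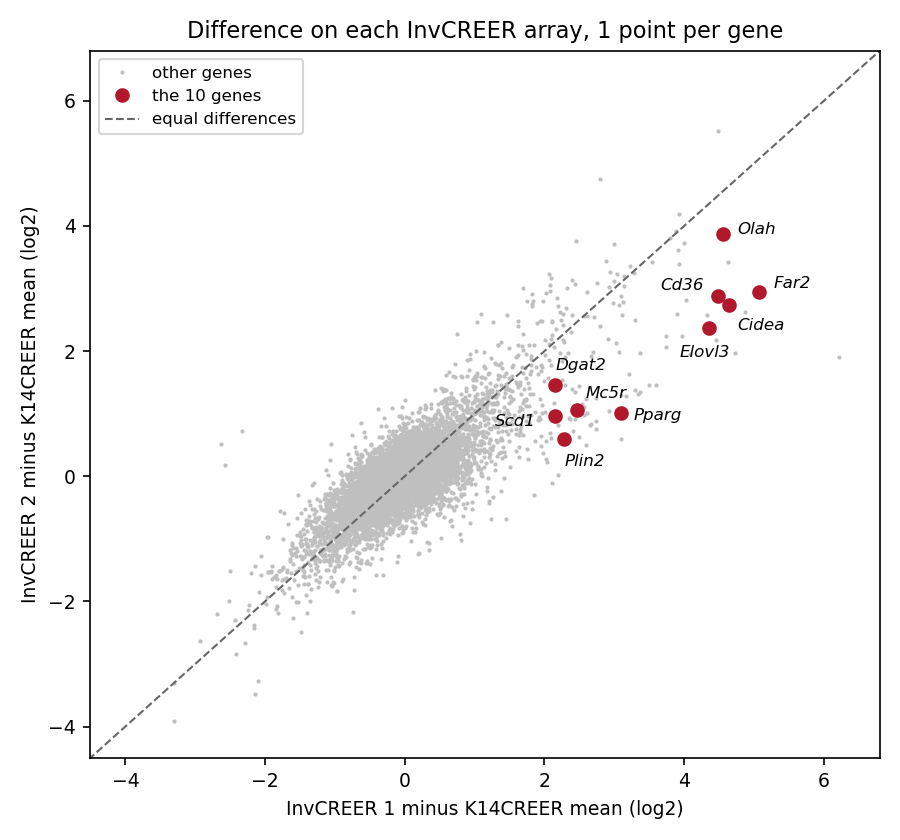
Difference of InvCREER 1 (horizontal axis) and InvCREER 2 (vertical axis) from the K14CREER mean, in log2 units, 1 point for each of 11270 tested genes. The 10 genes (red) all lie below the dashed line of equal differences, Olah the nearest to it relative to its size (3.87 against 4.55) and Plin2 the lowest on the vertical axis (0.60, against 2.29 on the horizontal).

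In the fit over all probe sets limma called 3 of the 10 genes, Dgat2, Cd36 and Olah, at an adjusted p under 0.05, where it called 1.33% of tested genes (0.958% higher and 0.373% lower in InvCREER). Of the 15 tested probe sets it called 6, against 0.959% of all. Nothing is read from these counts, since the genes were picked on the same contrast. The count changed with the arrays used. Without K14CREER 1 or without K14CREER 2 limma called 1 of 10, Olah. Without InvCREER 1 it called 7 of 10, and without InvCREER 2 all 10, while the share of all probe sets called was 0.364%, 0.635%, 2.22% and 4.36% in these 4 fits. The mean difference was 4.21 for Olah, 4.01 for Far2, 3.69 for Cidea, 3.68 for Cd36 and 3.36 for Elovl3. It was 2.05 for Pparg, 1.81 for Dgat2, 1.76 for Mc5r, 1.56 for Scd1 and 1.44 for Plin2. Except for Dgat2 and Olah, each of these was an average over InvCREER arrays that differed by more than 1 log2 unit.

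The start regions of these genes were read for letters that match known factor sites. RefSeq promoter windows of GRCm38.p6 were matched for 5 of the 10 genes, Cd36, Far2, Olah, Plin2 and Pparg, which has 3 annotated starts, giving 7 windows of 250 bases ending at the start. On either strand 5 motifs were searched. They were the nuclear receptor half-site AGGTCA, the direct repeat of 2 copies of AGGNCA with any 1 base between, a relaxed form of the element bound by pairs of PPAR and RXR, the CCAAT box CCAAT, the TATA box TATAAA and the C/EBP core TTGCNNAA. The windows of Plin2, Cd36 and Pparg are shown because, of the 7 read, they are those with a match. They are given 5′ to 3′ on the strand of the gene, with the matches in capitals. Plin2 and Cd36 lie on the minus strand and Pparg on the plus strand.
Plin2 chr4:86670060-86670309: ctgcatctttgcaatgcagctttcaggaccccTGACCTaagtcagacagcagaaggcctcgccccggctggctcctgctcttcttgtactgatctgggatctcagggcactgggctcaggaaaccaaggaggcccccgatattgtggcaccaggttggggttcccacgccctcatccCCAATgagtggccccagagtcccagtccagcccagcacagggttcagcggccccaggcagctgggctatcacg
Cd36 chr5:17835897-17836146: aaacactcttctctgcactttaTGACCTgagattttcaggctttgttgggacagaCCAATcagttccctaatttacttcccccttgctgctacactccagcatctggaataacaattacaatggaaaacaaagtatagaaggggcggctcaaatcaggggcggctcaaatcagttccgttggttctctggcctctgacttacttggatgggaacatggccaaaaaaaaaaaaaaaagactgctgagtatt
Pparg chr6:115360894-115361143: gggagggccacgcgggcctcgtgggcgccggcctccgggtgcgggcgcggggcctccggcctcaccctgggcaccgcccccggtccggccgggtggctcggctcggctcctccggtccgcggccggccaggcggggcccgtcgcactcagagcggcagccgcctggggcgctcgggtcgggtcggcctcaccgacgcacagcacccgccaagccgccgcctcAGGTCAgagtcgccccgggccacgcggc
Pparg chr6:115362099-115362348: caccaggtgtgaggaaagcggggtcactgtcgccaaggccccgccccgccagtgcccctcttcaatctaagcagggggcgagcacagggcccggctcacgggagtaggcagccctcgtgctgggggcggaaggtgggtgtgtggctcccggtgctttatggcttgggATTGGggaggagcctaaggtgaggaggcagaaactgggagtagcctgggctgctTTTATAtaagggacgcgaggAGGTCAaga
Pparg chr6:115421816-115422065: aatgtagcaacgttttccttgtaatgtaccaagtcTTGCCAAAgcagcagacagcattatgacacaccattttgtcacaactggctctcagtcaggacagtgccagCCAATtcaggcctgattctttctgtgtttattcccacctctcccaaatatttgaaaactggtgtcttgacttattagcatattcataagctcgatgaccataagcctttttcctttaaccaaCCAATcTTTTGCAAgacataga

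The half-site stood in 4 of the 7 windows, those of Plin2 and Cd36 and the first 2 of Pparg, where 14% of all 32851 windows held it. In Plin2 and Cd36 it lay on the opposite strand, from -218 to -213 and from -228 to -223 relative to the start, and it reads TGACCT above. The direct repeat, held by 0.338% of all windows, stood in none of the 7. The CCAAT box stood in 4 of the 7 (33.8% of all windows), and TATAAA in 1 (12.4%), the second of Pparg. In that window both lay on the opposite strand and read ATTGG and TTTATA above, with TATAAA from -29 to -24. The C/EBP core stood in the third Pparg window 2 times and in no other (9.56% of all windows). No match overlapped another. The windows of Far2 and Olah held none of the 5 motifs. The first Pparg window was 82.4% G and C and the third 40.8%, against a median of 52.4% over all windows. These are matches of letters and show no binding, and the arrays do not tell which Pparg start was used.

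Most genes next to the 10 on their chromosomes had small differences. The nearest gene with a named probe set on each side gave 20 neighbours, of which 13 passed the filter. limma called 0 of the 13. At an unadjusted p under 0.05 in limma, 0 were higher and 2 lower in InvCREER, against 7.58% and 8.54% of tested genes. Of the 13, 1 had both InvCREER arrays above both K14CREER arrays, against 21.3% of all tested genes. The median difference of the 13 was -0.05, with a range of -0.95 to 0.33. The largest were decreases, -0.95 for Tubb6 beside Cidea and -0.90 for Sema3c beside Cd36. Scd2, the desaturase gene beside Scd1, was at 11.89 and 12.09 with InvCREER, against 11.32 and 12.07 with K14CREER, and these values overlapped. Mogat2, a monoacylglycerol acyltransferase gene beside Dgat2, and Mc2r, the corticotropin receptor gene beside Mc5r, lay under the filter.

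The wider lipid pathways were read from 7 lists of genes other than the 10. They hold 133 genes, 115 with a named probe set, of which 89 were tested. limma called 4 of 89 (4.49%), Elovl4, Agpat3 and Pnpla3 higher in InvCREER and Cav1 lower, against 1.33% of all tested genes. Both InvCREER arrays lay above both K14CREER arrays in 41 of 89 and below them in 13, against 21.3% and 24.1% of tested genes. Their median difference was 0.31, against -0.01 over all tested genes.

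On the brightest probe sets, the 4 called genes differed from the 10 in that the InvCREER arrays were close together. The dimmer Dgat2 and Olah probe sets also had close InvCREER arrays, 0.06 and 0.25 apart in log2 units. Elovl4, which makes the very long fatty acids of barrier ceramides, was at 11.02 and 11.06 with InvCREER, against 7.15 and 7.11 with K14CREER (limma adjusted p = 0.00451). Agpat3, an acyltransferase of phospholipid and triglyceride synthesis, was at 9.52 and 9.88 with InvCREER, against 7.28 and 7.53 with K14CREER (limma adjusted p = 0.0164). Pnpla3, a lipase of the droplet surface, was at 8.88 and 8.60 with InvCREER, against 6.98 and 6.95 with K14CREER (limma adjusted p = 0.0329). Cav1, the main protein of caveolae, was at 10.82 and 10.79 with InvCREER, against 12.09 and 12.09 with K14CREER (limma adjusted p = 0.0148). In each of them the InvCREER arrays differed by less than 0.5 in log2 units, a closeness that the test itself favours. Leaving out K14CREER 1 ended the calls of Agpat3, Pnpla3 and Cav1, and leaving out K14CREER 2 those of Pnpla3 and Cav1.

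**Figure D3:**
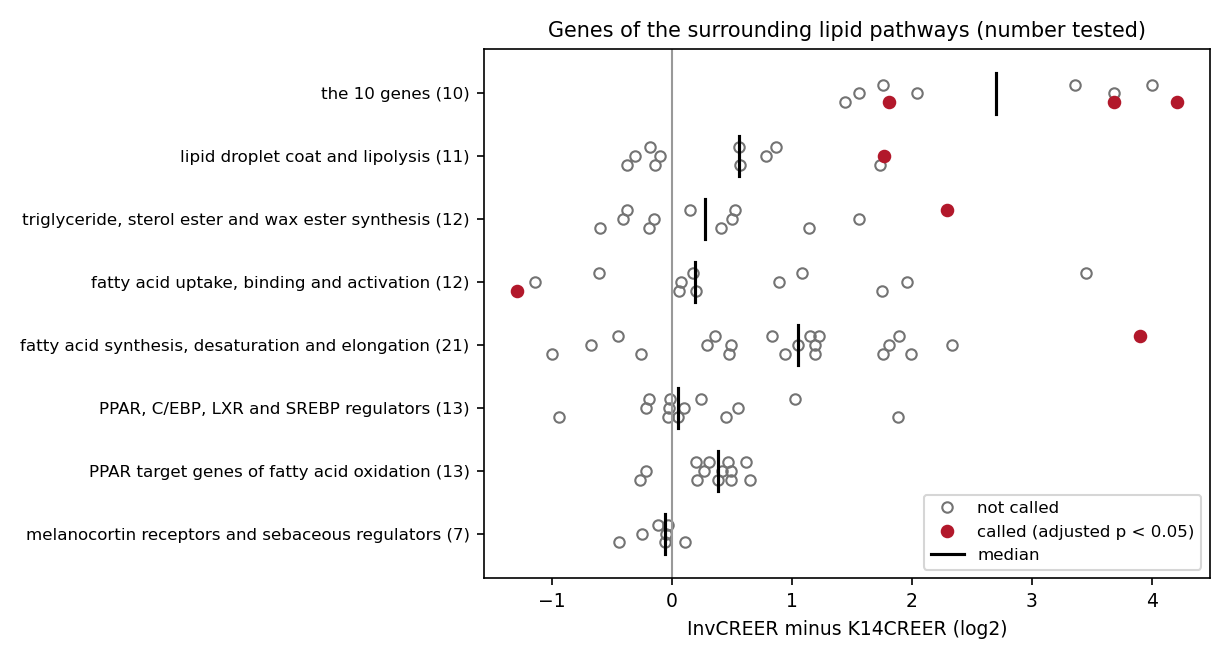
Difference between InvCREER and K14CREER means in log2 units (horizontal axis) for the 10 genes (top row) and the tested genes of 7 lipid lists, 1 point per gene, with the number tested in brackets and a bar at the median. Filled points passed the limma threshold; fatty acid synthesis, desaturation and elongation has the highest median of the 7 lists (1.06), and the melanocortin and sebaceous regulators lie close to 0.

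Of the fatty acid synthesis, desaturation and elongation list, limma called 1 of 21 (Elovl4), against 1.33% of tested genes. In 15 of 21 both InvCREER arrays lay above both K14CREER arrays (21.3% of tested genes), and in 3 of 21 they lay below them (24.1%). At an unadjusted p under 0.05 in limma, 13 were higher and 2 lower in InvCREER, against 7.58% and 8.54% of tested genes. Among the 15 was Scd3, whose K14CREER mean lay under the filter value. The list median was 1.11 on InvCREER 1 and 0.78 on InvCREER 2. Elovl6, an elongase of fatty acids made in the cell, was at 12.36 and 10.43 with InvCREER, against 9.37 and 8.75 with K14CREER (limma adjusted p = 0.137). Scd3, a desaturase known from mouse sebaceous glands, was at 7.98 and 6.49 with InvCREER, against 5.55 and 4.93 with K14CREER (limma adjusted p = 0.137). Both were highest on InvCREER 1 and next on InvCREER 2, as all 10 genes were. Me1, which supplies NADPH for fatty acid synthesis, had a difference of 1.90 (limma adjusted p = 0.0679).

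Of 12 triglyceride, sterol ester and wax ester synthesis genes 1 was called (Agpat3), against 1.33% of tested genes, and the median was 0.28. Agpat4 had a difference of 1.56 (limma adjusted p = 0.0999) and Gpam, the first enzyme of glycerolipid synthesis, of 1.15 (limma adjusted p = 0.168). Lpin2 was at -0.59. Dgat1, which carries out the same reaction as Dgat2 with an unrelated protein, was at 9.38 and 8.56 with InvCREER, against 8.59 and 8.34 with K14CREER, and these values overlapped. Of 11 droplet coat and lipolysis genes 1 was called (Pnpla3), against the same 1.33%, and the median was 0.57. Mgll, the monoglyceride lipase, had a difference of 1.74 (limma adjusted p = 0.230) that was carried by InvCREER 1 at 11.30, with InvCREER 2 at 9.47, against 8.84 and 8.47 with K14CREER. Abhd5, the co-activator of the main triglyceride lipase, was at 9.96 and 9.97 with InvCREER, against 8.93 and 9.26 with K14CREER (limma adjusted p = 0.118). Fitm2, a protein of droplet formation, had a difference of 0.79. Plin4, Plin5 and Cidec, relatives of Plin2 and Cidea, lay under the filter.

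Of 12 uptake, binding and activation genes 1 was called (1.33% of tested genes), Cav1, which fell by 1.29, and the median was 0.19. The list went both ways. At an unadjusted p under 0.05 in limma, 5 were higher and 3 lower in InvCREER, against 7.58% and 8.54% of tested genes. Lpl, the lipase that frees fatty acids from lipoproteins, was at 10.55 and 8.81 with InvCREER, against 6.66 and 5.80 with K14CREER (limma adjusted p = 0.0590). Its difference of 3.45 was close in size to that of Cd36. Fabp5, the epidermal fatty acid binding protein, was at 13.50 and 13.29 with InvCREER, against 11.97 and 10.90 with K14CREER (limma adjusted p = 0.0565). Here the K14CREER arrays were further apart than the InvCREER arrays, and limma called Fabp5 without any 1 of the 4 arrays. Slc27a4, a fatty acid transport protein, had a difference of 1.75 (limma adjusted p = 0.241).

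The transcription factors around Pparg had mostly small differences. Of 13 PPAR, C/EBP, LXR and SREBP regulators 0 were called by limma (2 higher and 1 lower in InvCREER at an unadjusted p under 0.05, against 7.58% and 8.54% of tested genes), and the median was 0.06. Cebpa, a factor of sebocyte and adipocyte differentiation, was at 11.03 and 9.93 with InvCREER, against 8.76 and 8.42 with K14CREER (limma adjusted p = 0.0801). Cebpb had a difference of 1.03 (limma adjusted p = 0.238) and Klf15 of -0.94 (limma adjusted p = 0.119). Srebf2, which drives sterol synthesis genes, had a difference of 0.55. Of 13 PPAR target genes of fatty acid oxidation 0 were called by limma, and the median was 0.39. At an unadjusted p under 0.05 in limma, 3 of the 13 were higher in InvCREER, against 7.58% of tested genes. In 7 of the 13 both InvCREER arrays lay above both K14CREER arrays, against 21.3% of tested genes. Acadm and Acaa2 had the largest differences, 0.65 and 0.62, and Acaa1a and Cpt1a were at 0.50 and 0.49. Of 7 melanocortin and sebaceous regulators 0 were called, 0 of them at an unadjusted p under 0.05, and their median was -0.06. Smad7 was at -0.44, Lrig1 at -0.24, Ptch1 at -0.12 and Myc at 0.11. The higher values of Mc5r and Pparg thus stood in lists whose medians, taken over both InvCREER arrays, were near 0. InvCREER 1 was above InvCREER 2 for 12 of the 13 PPAR, C/EBP, LXR and SREBP regulators, against 43.5% of tested genes. Their medians were 0.30 on InvCREER 1 and -0.10 on InvCREER 2. Of the 7 melanocortin and sebaceous regulators, 3 were higher on InvCREER 1 than on InvCREER 2.

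Of 12 sebocyte markers outside the 10, 9 had a named probe set and 8 were tested. InvCREER 1 was above InvCREER 2 for 7 of the 8, against 43.5% of tested genes. Scd3 had a K14CREER mean under the filter value and so had to differ. Of the other 7, limma called 0, 5 were higher in InvCREER at an unadjusted p under 0.05 (7.58% of tested genes), and 5 had both InvCREER arrays above both K14CREER arrays (21.3%). The mean log2 value of the 9 was 8.89 on InvCREER 1 and 7.91 on InvCREER 2, against 7.37 and 7.05 with K14CREER. Fa2h, which hydroxylates fatty acids, was at 11.72 and 9.44 with InvCREER, against 7.88 and 6.65 with K14CREER (limma adjusted p = 0.112). Krt79, a keratin of the sebaceous duct and upper follicle, was at 11.94 and 10.06 with InvCREER, against 9.26 and 8.79 with K14CREER (limma adjusted p = 0.182). Krt7 was level on the InvCREER arrays, at 8.09 and 8.08, against 6.52 and 7.28 with K14CREER. Fads2 was lowest on InvCREER 1, at 5.35 and 5.46 with InvCREER, against 5.79 and 5.53 with K14CREER. Muc1 lay under the filter. Scd3, Acsbg1 and Fads2 of these markers also stand in the lipid lists. Their part in the differences of the 10 genes was not tested.

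Langerhans and myeloid markers were higher on InvCREER 1 than on InvCREER 2 in 7 of 7 tested, against 43.5% of tested genes. Of 14, 7 were tested and limma called 0. Ctss and Cd207 had K14CREER means under the filter value and so had to differ. Of the other 5, 4 were higher in InvCREER at an unadjusted p under 0.05 (7.58% of tested genes), and both InvCREER arrays were above both K14CREER arrays in 5 (21.3%). The mean log2 value of the 14 was 6.54 on InvCREER 1 and 5.67 on InvCREER 2, against 5.27 and 5.07 with K14CREER. H2-Aa, a class II antigen presentation gene, was at 9.43 and 7.41 with InvCREER, against 6.44 and 5.68 with K14CREER (limma adjusted p = 0.166). Ctss differed by 2.23, H2-Ab1 by 2.20 and H2-Eb1 by 1.81. Cd207, the defining marker of Langerhans cells, was at 6.77 and 5.74 with InvCREER, against 5.16 and 4.99 with K14CREER. The macrophage and myeloid markers Adgre1, Lyz2, Mrc1, Mpeg1, Itgax, Tyrobp and Fcer1g lay under the filter. As Cd36 and Plin2 are active in such cells too, these values stand beside theirs, and their part was not tested.

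Of 10 adipocyte markers 7 had a named probe set, and Adipoq, Lep, Lipe, Cidec and Fabp4 lay under the filter. The mean log2 value of the 7 was 5.47 on InvCREER 1 and 5.24 on InvCREER 2, against 5.00 and 4.84 with K14CREER, and Lpl was the 1 tested gene higher there, with Retn at -0.19. Endothelial markers were at 4.77 and 4.97 with InvCREER, against 4.91 and 4.82 with K14CREER, and Pecam1, Cdh5 and 4 others of 8 lay under the filter, with Kdr at -0.16 and Egfl7 at -0.12. Dermal fibroblast markers were at 5.55 and 5.33 with InvCREER, against 6.66 and 5.69 with K14CREER, with 0 of 4 tested called by limma (2 lower in InvCREER at an unadjusted p under 0.05, against 8.54% of tested genes), Dcn at -1.87, Thy1 at -1.81, Col1a2 at -0.33 and Vim at -0.07. Melanocyte markers were at 5.81 and 6.24 with InvCREER, against 6.29 and 5.80 with K14CREER, with 0 of 4 called by limma, 0 at an unadjusted p under 0.05, and the differences of Tyrp1, Sox10, Pmel and Dct lay between -0.25 and 0.43. Adipoq, Lep, Lipe, Cidec and Fabp4 thus lay under the filter value, which is a median and no measure of detection, beside a high Lpl. The part of adipocytes was not tested.

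**Figure D4:**
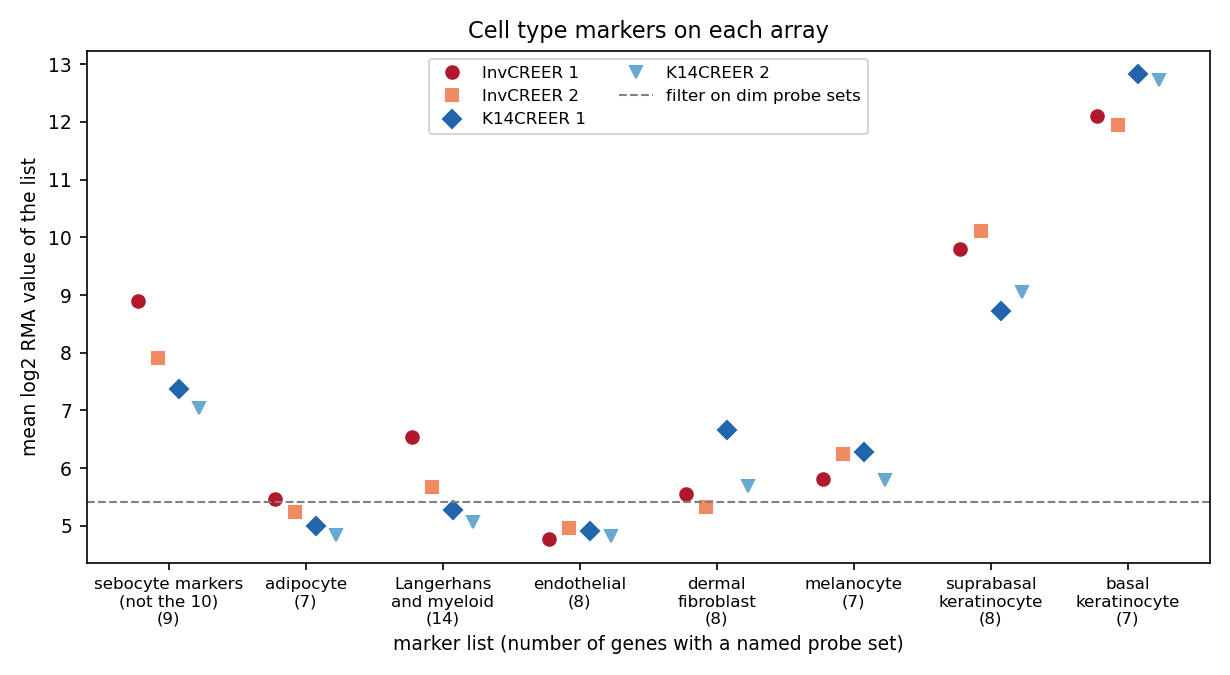
Mean log2 RMA value (vertical axis) of 8 marker lists on each array, over all genes of the list with a named probe set (number in brackets). Sebocyte markers outside the 10 genes and Langerhans and myeloid markers are highest on InvCREER 1 (8.89 and 6.54), whereas suprabasal keratinocyte markers are highest on InvCREER 2 (10.10).

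limma called 5 of 6 tested suprabasal markers higher in InvCREER, Dsc1, Sbsn, Krt1, Dsg1a and Krt10, where it called 0.958% of tested genes higher. Of the 6, 1 was higher on InvCREER 1 than on InvCREER 2. Their median difference was 1.13 on InvCREER 1 and 1.45 on InvCREER 2. Dsc1, a desmosomal cadherin, was at 11.67 and 11.80 with InvCREER, against 8.64 and 8.71 with K14CREER (limma adjusted p = 0.00451). Both InvCREER arrays lay below both K14CREER arrays in 7 of 7 basal markers, against 24.1% of tested genes, and limma called 1, Krt15, lower (0.373% of tested genes). InvCREER 1 was above InvCREER 2 in 5 of the 7. Krt15 was at 11.35 and 11.07 with InvCREER, against 12.71 and 12.46 with K14CREER (limma adjusted p = 0.0212). Itgb4, the partner of alpha6 integrin, was at 9.80 and 9.25 with InvCREER, against 10.99 and 10.72 with K14CREER (limma adjusted p = 0.0631). Col17a1, which anchors basal cells, was at 12.61 and 12.45 with InvCREER, against 13.17 and 13.10 with K14CREER (limma adjusted p = 0.0565). These 3 were a little higher on InvCREER 1, and the following were not. Krt14 was at 13.82 and 13.85 with InvCREER, against 14.14 and 14.17 with K14CREER, and Itga6, the integrin of the gate, at 11.62 and 11.77, against 12.38 and 12.41. Ivl and Cd34 lay under the filter. Suprabasal values were thus mostly no larger on InvCREER 1 than on InvCREER 2.

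The 6 genes outside the 10 with the most similar profile were named by the root mean square distance, over the 4 arrays, between a gene's centred log2 values and the mean centred profile of the 10. That mean profile was 2.15 on InvCREER 1, 0.61 on InvCREER 2, -1.18 on K14CREER 1 and -1.58 on K14CREER 2. The nearest were Egr3 (distance 0.12), Rdh9 (0.12), Akr1c18 (0.14), Aadac (0.20), Cyp2b19 (0.25) and Elovl6 (0.26). limma called none of the 6, with adjusted p between 0.0565 and 0.137. Egr3, an early response transcription factor, was at 9.88 and 8.48 with InvCREER, against 6.85 and 6.17 with K14CREER. Rdh9, a retinol dehydrogenase, was at 8.69 and 7.19 with InvCREER, against 5.19 and 4.72 with K14CREER. Rdh9, Aadac and Cyp2b19 had K14CREER means of 4.95, 5.30 and 4.23, under the filter value, and so had to differ. Akr1c18, an aldo-keto reductase that inactivates progesterone, was at 9.54 and 7.87 with InvCREER, against 5.85 and 5.76 with K14CREER. All 6 were nearer to the mean profile than any of the 10 genes, of which Elovl3 (0.36) and Pparg (0.41) were the nearest and Olah (0.85) the furthest. The 6 were picked for a small distance and the 10 were not, so nothing is read from this order. With 4 arrays a small distance is a description of these arrays.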

How the data were processed

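The authors amplified 100 ng of total RNA per array and hybridised it to Affymetrix mouse arrays, per the labels' protocols. The deposited values are log2 values that the authors made with the RMA method, and the submitters' processing notes name Expression Console 1.1. Array medians were 5.41 to 5.44. RMA forces 1 distribution on the arrays and hides changes in total RNA, and the number of arrays limits the precision.

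The 64 control probe sets were dropped. Of the remaining 45037, the 22519 whose mean over the 4 arrays reached the median of those means (a log2 value of 5.42) were tested. Gene symbols came from the platform annotation, updated by Entrez number in a RefSeq table of GRCm38.p6. Of the 45037 probe sets 34945 had 1 symbol, 932 several and 9160 were unnamed here. Each gene was read from its brightest probe set by mean. InvCREER minus K14CREER was fitted in R 4.3.3 by limma's lmFit (version 3.58.1), followed by eBayes with variance allowed to depend on level, 2-sided, with Benjamini-Hochberg adjustment over all 22519 probe sets and calls at an adjusted p under 0.05. The fit was tested on simulated data. The 10 genes, the lists and the motifs were chosen with earlier results of these data known. The text names up to 4 genes per list, called genes first and then by absolute difference, every called gene, the 6 nearest profiles, and Krt14, Ivl, Itga6, Cd34, Xist, Uty, Kdm5d and Eif2s3y as checks of the lines and samples; Dgat1, Cd207, Fads2, Acsbg1, the relatives of Plin2 and Cidea and the neighbours of the 10 genes are outside it and were named after their values were seen. Promoter windows came from RefSeq. In fits that drop 1 array, its line keeps 1 array and the spread comes from the other line. Plots used matplotlib 3.10.9.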

Additional observations from a re-analysis of the deposited data

How the results depend on the processing

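The median difference of the 10 genes was 2.71, with a range of 1.92 to 3.73 when 1 array was left out and 3.36 with the stricter filter, which kept 7 of the 10. Its sign was fixed by the choice of the genes and says nothing about stability, and the filter and block leave the difference of a gene as it is. Olah was at 3.51, against 4.21, without the probe sets marked as matching several transcripts.

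Counts of calls depended on the setting. Over all probe sets limma called 216, against 398 with the stricter filter, 122 without the variance trend and 692 at an adjusted p under 0.1, with 82 to 981 when 1 array was left out. Of the 10 genes it called 3, against 5 with the stricter filter, 1 without the variance trend, 6 with the mean of all probe sets of a gene and 6 at the looser threshold, with 1 to 10 when 1 array was left out. Of the lipid genes outside the 10 it called 4, against 10, 3, 11 and 13 in the same order, with 2 to 27 when 1 array was left out. No filter, array weights, centring of the arrays and leaving out the probe sets marked as matching several transcripts kept these counts within 1.5 times. The causes were not tested.

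The array numbers in the titles are not said to pair the arrays. Deviations from the line means of same-numbered arrays correlated at 0.38 across 22519 probe sets. With the array number as a block, limma called 1390 probe sets, 9 of the 10 genes and 26 of the lipid genes outside them. Background limits the differences of Olah, Cd36, Pparg and Mc5r, whose K14CREER means lay under the filter value. On the brightest probe sets of Far2 and Cidea, K14CREER 2 also lay under the filter value, at 5.11 and 4.98.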
